A study of Mus musculus with 8 samples.

Results

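The 10 genes described here encode the machinery by which myeloid cells sense bacterial products and cell damage. They were taken by symbol from the deposited tables, where all 10 were found among 27923 genes. Cd14, Tlr2, Tlr4, Tlr13 and Ly96 encode receptors and co-receptors, Myd88 and Irak3 act on the signal inside the cell, and Nlrp3, Pycard and Casp1 form an inflammasome. On GRCm38 with the GENCODE vM21 annotation, Cd14 lies at chr18:36725067-36726798 on the minus strand. Tlr2 lies at chr3:83836272-83841767 (minus), Tlr4 at chr4:66827584-66930284 (plus), Tlr13 at chrX:106143204-106160493 (plus) and Ly96 at chr1:16688051-16709611 (plus). Myd88 lies at chr9:119335934-119341411 (minus) and Irak3 at chr10:120141648-120202130 (minus). Nlrp3 lies at chr11:59541568-59566956 (plus), Pycard at chr7:127989708-127993867 (minus) and Casp1 at chr9:5298517-5307265 (plus). Exons of Myd88, Irak3 and Pycard overlap genes on the opposite strand (Acaa1a for Myd88, Gm47009 and Tmbim4 for Irak3, Gm45205 for Pycard), and none of the 10 overlaps an annotated exon of another gene on its own strand. How reads over such overlaps were assigned is not given in the sources used here.

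CD14 hands lipopolysaccharide to the receptor complex of TLR4 and MD-2, the product of Ly96, while TLR2 senses bacterial lipoproteins and TLR13 senses bacterial ribosomal RNA. These receptors signal through the adaptor MyD88 and the IRAK kinases, and IRAK3 (IRAK-M) restrains that signal. NF-kB activity then raises NLRP3, which with the adaptor ASC, the product of Pycard, activates caspase-1, the protease that matures IL-1beta and IL-18. Neutrophils, monocytes and macrophages are the main users of this pathway in the lung.

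The data are Seq-Well single-cell RNA-seq libraries, which count transcripts by unique molecular identifiers (UMIs), from 2 mouse lung tumors of a genetically engineered, Cre-driven model that carries p53 fl/fl. The mice, 1 male and 1 female, were high-degree chimeras made by injecting embryonic stem cells of that model into albino C57BL/6 blastocysts. They were given Adeno-SPC-Cre into the airways, whose SPC promoter restricts Cre to alveolar type II cells, at 12 weeks of age, and 1 tumor was taken from each 16 weeks later. Each tumor gave 1 Healthy/Tumor Border library of cells that had been light-activated in a strip at the edge of the tumor and sorted for calcein violet and calcein NVOC, and 3 Whole Tumor arrays of cells that were not photoactivated. The comparison of these groups asks how cells at the margin differ from those of the tumor as a whole. Because the arrays of a tumor share 1 animal and each border is 1 library, p-values measure only the spread between libraries, and place, photoactivation and sort cannot be told apart. In comparisons of a border with the arrays, that spread comes from the whole arrays alone, which the paper calls technical replicates.

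The 8 libraries held 4343 barcodes and 405627 to 2029200 UMIs each, and 3894 barcodes with at least 200 genes were kept. Cell classes were rebuilt from marker genes that include none of the 10 genes, so class names may differ from those of the study, which named no separate neutrophil population. They gave 1475 neutrophil-like cells (median 2145 UMIs) and 682 macrophage-like cells. Summed over its markers, the neutrophil list (Csf3r, S100a8, G0s2 and others) stood at 14034 CPM (UMIs of a list or gene per 1000000 UMIs of the class) in neutrophil-like and 741 in macrophage-like cells, and the C1q macrophage list at 65.7 and 17915. Of the neutrophil-like cells, 420 scored for a Siglec-F type (Siglecf, Ltc4s, Ffar2), 403 of them in Tumor 1, and 514 for a Retnlg Hdc type, 397 of them in Tumor 2; 541 scored for neither. A further 767 barcodes were led by satellite transcripts and were not used. The cell names inside the tables carry the other tumor's number, so the sample labels were followed. Xist ran from 399 to 609 CPM in the 4 libraries labelled Tumor 1 and from 2.04 to 2.67 in the 4 labelled Tumor 2, so the libraries of a label belong together. The libraries labelled Tumor 1 held 686 barcodes at the border and 1634 in the whole arrays, and those labelled Tumor 2 held 534 and 1489. The cell numbers that the study gives for each tumor and region run the way of the labels, not of the cell names. Of all barcode sequences, 10 occurred in more than 1 library (56 kept barcodes). The Tumor 1 border library held only 21 macrophage-like cells, in which the neutrophil list reached 8284 CPM against 197 to 1268 in the macrophage-like cells of the other libraries, and array 2 of the Tumor 2 whole arrays was shallow, with a median of 596 UMIs per neutrophil-like cell.

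The promoters of Tlr2, Nlrp3, Tlr13 and Irak3 are shown here, each with a match to a motif named below. These genes are 4 of the 5 members called higher in the neutrophil-like cells of Tumor 2 than of Tumor 1. The letters searched included those of NF-kB and of the myeloid factors C/EBP and PU.1, and their part in that difference was not tested. RefSeq promoters on GRCm38.p6, 250 bases before to 50 after a start, were found for 7 of the 10 genes (9 promoters), with Cd14, Tlr4 and Ly96 not matched. Capitals mark every base inside a match, on either strand, to the 10-base NF-kB consensus or to the C/EBP letters TTGCNNAA. The first, of Tlr2, spans chr3:83841559-83841858 on the minus strand and that of Nlrp3 spans chr11:59541319-59541618 on the plus strand. That of Tlr13 spans chrX:106143025-106143324 (plus) and the upstream one of the pair for Irak3 spans chr10:120202081-120202380 (minus).
Tlr2: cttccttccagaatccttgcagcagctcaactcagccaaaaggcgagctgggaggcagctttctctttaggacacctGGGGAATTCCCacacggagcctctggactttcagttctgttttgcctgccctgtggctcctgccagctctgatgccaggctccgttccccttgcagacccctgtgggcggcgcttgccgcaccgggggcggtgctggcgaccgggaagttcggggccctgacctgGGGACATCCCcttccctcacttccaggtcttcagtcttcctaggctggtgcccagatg
Nlrp3: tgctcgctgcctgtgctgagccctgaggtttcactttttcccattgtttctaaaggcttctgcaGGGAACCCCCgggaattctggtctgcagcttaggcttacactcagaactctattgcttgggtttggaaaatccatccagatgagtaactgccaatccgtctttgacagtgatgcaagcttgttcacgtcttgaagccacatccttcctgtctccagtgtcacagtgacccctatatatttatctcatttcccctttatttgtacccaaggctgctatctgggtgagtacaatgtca
Tlr13: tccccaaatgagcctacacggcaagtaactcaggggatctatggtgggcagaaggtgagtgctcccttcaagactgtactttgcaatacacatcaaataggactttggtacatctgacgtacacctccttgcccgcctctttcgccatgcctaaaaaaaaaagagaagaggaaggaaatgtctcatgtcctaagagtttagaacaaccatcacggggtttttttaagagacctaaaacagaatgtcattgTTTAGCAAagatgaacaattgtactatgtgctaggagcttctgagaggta
Irak3: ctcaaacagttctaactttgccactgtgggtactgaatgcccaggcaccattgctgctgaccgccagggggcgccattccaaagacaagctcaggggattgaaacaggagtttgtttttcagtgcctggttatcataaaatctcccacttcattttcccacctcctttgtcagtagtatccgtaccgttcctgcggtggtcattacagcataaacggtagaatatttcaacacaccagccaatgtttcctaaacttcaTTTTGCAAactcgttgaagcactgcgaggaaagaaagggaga

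In Tlr2 the NF-kB letters occurred as matches overlapping on both strands, the first starting 173 bases before the start, and as a single match on the strand shown 8 bases before it. In Nlrp3 they occurred once, 186 bases before the start. The C/EBP letters began at the start site itself in Tlr13 and 8 bases after it in Irak3. Of all 32851 mouse promoters of the same length, 4.51% held the NF-kB consensus, 10.8% the C/EBP letters, 3.2% the PU.1 letters GAGGAAGT and 7.81% the AP-1 letters TGANTCA. Of the 9 member promoters 2 held the NF-kB consensus and 3 the C/EBP letters, the third being that of Pycard, which alone held the PU.1 letters, and the AP-1 letters occurred in none. The promoters of Casp1 and Myd88 and the second promoters of Nlrp3 and Irak3 held no match. A match is a description of the sequence, and these data hold no measure of binding.

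Levels were read as CPM, the UMIs of a gene summed over all cells of a class, scaled to 1000000 UMIs of that class, with exact 95% Poisson intervals that cover counting error only. They are compared within a gene, not between genes. Because the classes drew unequal shares of their cells from the 2 tumors and from border and arrays, the order of classes was taken over the 3 whole arrays of each tumor, with the 8 classes that had at least 25 cells there in Tumor 1 and the 9 in Tumor 2.

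**Figure D1:**
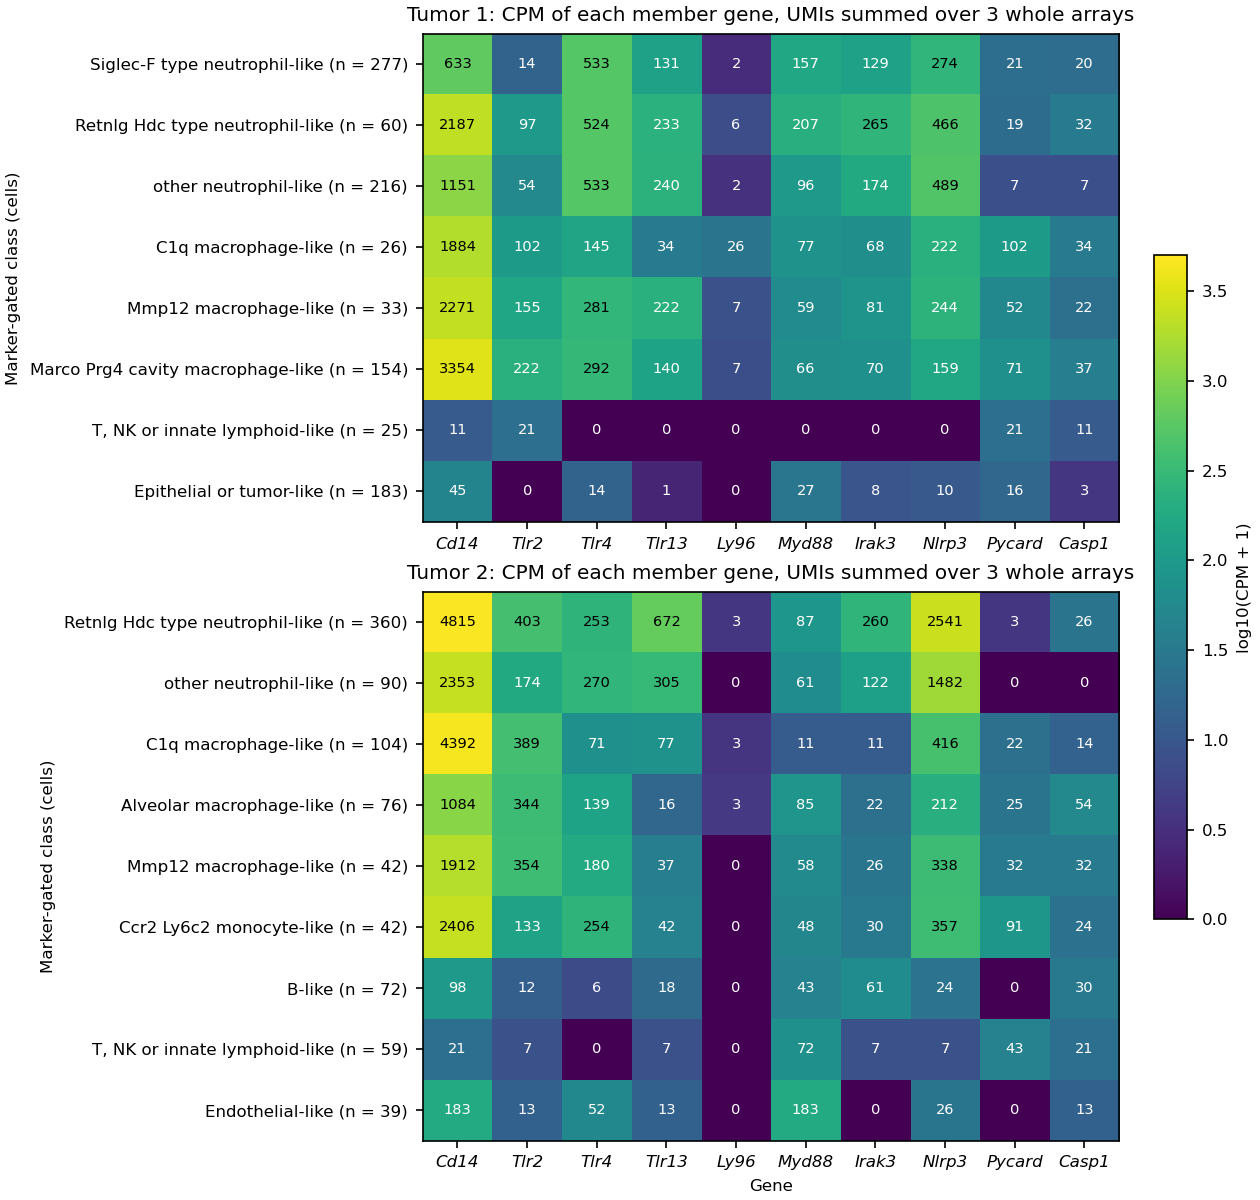
Heat maps of CPM (printed in each cell, colored as log10(CPM + 1)) for the 10 genes (columns) in the marker-gated classes (rows, with the number of cells) summed over the 3 whole arrays of Tumor 1 (upper panel) and of Tumor 2 (lower panel). Nlrp3 stood at 2541 and 1482 in the neutrophil-like classes of Tumor 2 and at no more than 416 in its other classes, and Ly96 was at 26 or less throughout.

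Cd14, the co-receptor for lipopolysaccharide, was found in both neutrophil-like and macrophage-like classes. In Tumor 2 the Retnlg Hdc type led with 4815 CPM (3367 UMIs in 360 cells), followed by C1q macrophage-like cells at 4392, each with an interval apart from the next class. Monocyte-like cells at 2406 and other neutrophil-like cells at 2353 overlapped there. In Tumor 1 the Marco Prg4 cavity macrophage-like cells led with 3354, above Mmp12 macrophage-like cells at 2271 and the Retnlg Hdc type at 2187, which overlapped, and the Siglec-F type had the least of the myeloid classes at 633. Over all libraries 69.9% of neutrophil-like and 82.3% of macrophage-like cells held a Cd14 UMI, against 4.59% of T, NK or innate lymphoid-like cells (median 2477 UMIs) and 4.41% of B-like cells (median 2214.5 UMIs), which should lack the gene and so give the background. In B-like cells the 52 Cd14 UMIs lay in 6 of 136 cells.

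Tlr2, the lipoprotein receptor, was ordered differently in the 2 tumors. In Tumor 1 the cavity macrophage-like cells had 222 CPM, Mmp12 cells 155 and C1q cells 102, whose intervals overlapped from each to the next, and that of the Retnlg Hdc type (97.0) overlapped with C1q cells. The Siglec-F type, at 13.9, held 14 UMIs in 277 cells. In Tumor 2 the Retnlg Hdc type (403), C1q (389), Mmp12 (354) and alveolar (344) macrophage-like cells overlapped, all above other neutrophil-like cells at 174. No UMI was found in the epithelial or tumor-like cells of either tumor.

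Tlr4, the lipopolysaccharide receptor, stood first in the neutrophil-like classes of Tumor 1. Other neutrophil-like cells and the Siglec-F type, both at 533 CPM, and the Retnlg Hdc type at 524 overlapped there, and all lay above cavity macrophage-like cells at 292 and Mmp12 cells at 281. In Tumor 2 other neutrophil-like cells (270), monocyte-like cells (254), the Retnlg Hdc type (253) and Mmp12 cells (180) overlapped from each to the next, and C1q macrophage-like cells had 71.1.

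Tlr13, the sensor of bacterial ribosomal RNA, stood first in neutrophil-like classes of both tumors, in Tumor 1 without a gap to the macrophage-like classes. In Tumor 2 the Retnlg Hdc type had 672 CPM, other neutrophil-like cells 305 and C1q macrophage-like cells 76.6, with the first and the second each apart from the next. In Tumor 1 other neutrophil-like cells (240), the Retnlg Hdc type (233), Mmp12 (222) and cavity (140) macrophage-like cells and the Siglec-F type (131) overlapped from each to the next, and C1q macrophage-like cells, at 34.1, lay apart below them. Ly96, the partner of TLR4, gave 23 UMIs over all 16 classes of the series with at least 25 cells, 8 of them in neutrophil-like and 13 in macrophage-like cells, so its level could not be ordered at this depth.

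Irak3, the restrainer, stood first in the Retnlg Hdc type of both tumors. In Tumor 2 it had 260 CPM there, with an interval apart from other neutrophil-like cells at 122, and C1q macrophage-like cells held 10.9. In Tumor 1 it had 265, which overlapped with other neutrophil-like cells at 174, and C1q macrophage-like cells held 68.2. Myd88, the shared adaptor, stood in Tumor 1 at 207 in the Retnlg Hdc type and 157 in the Siglec-F type, which overlapped. In Tumor 2 its highest value, 183, was in endothelial-like cells from 14 UMIs, and the intervals of the 9 classes overlapped from each to the next.

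Of the inflammasome genes, Nlrp3, the sensor, reached 2541 CPM in the Retnlg Hdc type and 1482 in other neutrophil-like cells of Tumor 2, each apart from the next. C1q macrophage-like (416), monocyte-like (357) and Mmp12 macrophage-like cells (338) followed there. In Tumor 1 other neutrophil-like cells (489) and the Retnlg Hdc type (466) overlapped and lay above the rest. The Siglec-F type (274) did not differ beyond the intervals from Mmp12 (244) or C1q (222) macrophage-like cells. A UMI of Nlrp3 was found in 54.6% of neutrophil-like and 40.8% of macrophage-like cells, against 1.83% of T, NK or innate lymphoid-like and 5.15% of B-like cells.

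Pycard, the gene of the adaptor ASC, gave 43 UMIs in 2.10% of neutrophil-like cells and 151 in 14.4% of macrophage-like cells. Its highest values were in C1q macrophage-like cells of Tumor 1 (102 CPM, 12 UMIs) and in monocyte-like cells of Tumor 2 (90.7, 15 UMIs), both overlapping with the next class. Casp1, the protease gene, gave 55 UMIs in 3.12% of neutrophil-like and 92 in 11.3% of macrophage-like cells. In Tumor 2 alveolar macrophage-like cells (53.7), Mmp12 cells (31.7) and B-like cells (30.5) overlapped at the top of its order, and in Tumor 1 cavity macrophage-like cells had 37.1. A Pycard UMI was also found in 7.34% of T, NK or innate lymphoid-like and 4.95% of epithelial or tumor-like cells, and a Casp1 UMI in 11.8% of B-like cells, so the shares in neutrophil-like cells are not read as expression, nor that of Casp1 in macrophage-like cells as above B-like cells. Both genes were sparse, and the order among the macrophage-like classes was not resolved at this depth.

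The genes whose log levels followed the members best across 17 classes, including the pooled ones with at least 30 cells, were named from 6033 genes by Pearson's r, as a description with no test, since the points share libraries and depth. Nlrp3 was followed by Ccr1 (r = 0.972), a chemokine receptor, and Cxcl2 (0.962), a neutrophil-attracting chemokine. Cd14 was followed by Slc11a1 (0.944), a metal transporter of phagosomes, and by Ccr1 (0.934). Tlr4 was followed by Hmox1 (0.953), which degrades heme, Tlr2 by Slc15a3 (0.946), a peptide transporter, and Tlr13 by Cxcl3 (0.915). Irak3 came closest to Flcn (0.886) and S100a8 (0.885), and Myd88 to Arrdc4 (0.909). For the sparse genes the best values were 0.847 for Pycard with Naip2 and 0.812 for Ly96 with Cxcl14.

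Neutrophil-like cells carried more Irak3, Tlr13, Nlrp3, Tlr4 and Myd88 than macrophage-like cells of the same libraries and less Pycard. The test was edgeR's quasi-likelihood test on UMIs summed per library and class, with library as a block and Benjamini-Hochberg adjustment over 6212 genes. The log2 difference was 1.94 for Tlr13 (SE 0.552, adjusted p = 0.0112), 1.93 for Irak3 (SE 0.421, adjusted p = 0.00205) and 1.81 for Nlrp3 (SE 0.428, adjusted p = 0.00359). It was 1.08 for Tlr4 (SE 0.281, adjusted p = 0.00669) and 0.84 for Myd88 (SE 0.285, adjusted p = 0.0288). Pycard was lower, at -2.37 (SE 0.401, adjusted p = 0.000307). Cd14 (-0.17, adjusted p = 0.791), Tlr2 (-0.81, adjusted p = 0.215) and Casp1 (-0.71, adjusted p = 0.198) did not pass, and Ly96 was too sparse to test. Thus 6 of the 9 members tested were called by edgeR, where 40.5% of all genes were, and their median was 0.84 against -0.17 over all genes. The Myd88 call was lost without scaling beyond the library total (0.76, adjusted p = 0.0548), and without Tumor 1 whole array 1 (adjusted p = 0.059), Tumor 1 whole array 2 (0.0547) or Tumor 2 whole array 3 (0.0602). With sums per tumor, which leave 2 pairs, the calls of Tlr4 (1.53, adjusted p = 0.142) and Myd88 (1.20, adjusted p = 0.142) were lost. Against C1q macrophage-like cells alone, Irak3 stood at 2.80, Tlr13 at 2.66, Nlrp3 at 2.37 and Tlr4 at 2.36, and the call of Myd88 was lost (1.31, adjusted p = 0.069).

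Of 72 further genes of the pathway, listed by role, 53 could be tested, and 16 were higher and 15 lower in neutrophil-like cells, or 58.5% called beside the 40.5% of all genes. The largest differences upward were Nlrp12 (5.64), a brake on NF-kB signaling, Tlr6 (3.11), a partner of TLR2, and Mefv (2.97), the gene of pyrin. The largest downward were Ly86 (-6.39), a partner of the TLR-like RP105, Nlrc4 (-3.49), the sensor adaptor of the flagellin inflammasome, and Tlr7 (-3.46), a receptor for single-stranded RNA.

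The difference between the 2 cell types was not the same in the 2 tumors. The macrophage-like cells were of unlike makeup: cavity cells made up 70.1%, 58.1% and 68.7% of them in the Tumor 1 arrays and 3.28%, 1.25% and 4.85% in those of Tumor 2, and C1q cells 7.79%, 12.9% and 11.9% against 42.6%, 43.8% and 41.8%. In Tumor 2, C1q macrophage-like cells alone could be set against neutrophil-like cells, while in Tumor 1 those cells were too few for such a fit, so the part of the makeup in the difference between tumors was not tested. In Tumor 2, where 61.7% of genes were called, Tlr13 (3.51, adjusted p = 5.795e-08), Irak3 (3.18, adjusted p = 8.438e-07), Nlrp3 (3.03, adjusted p = 5.999e-09), Tlr4 (1.68, adjusted p = 4.072e-05) and Cd14 (0.81, adjusted p = 0.0132) were higher in neutrophil-like cells by edgeR. In Tumor 1, where 26.4% were called, Myd88 (0.98, adjusted p = 0.0268) and Irak3 (0.95, adjusted p = 0.0174) were higher and Pycard (-2.07, adjusted p = 0.00365) and Tlr2 (-2.07, adjusted p = 0.0109) were lower, while Nlrp3 stood at 0.65 (adjusted p = 0.0895) and Cd14 at -1.22 (adjusted p = 0.0699). These are 5 of 7 and 4 of 9 members tested. With DESeq2 the Tumor 1 calls of Irak3 (0.84, adjusted p = 0.0596) and Myd88 (0.91, adjusted p = 0.0838) were lost. The difference itself (Tumor 2 minus Tumor 1) was called by edgeR for 6 of 9 members, where 17.1% of all genes were called. It was 3.19 for Tlr13 (SE 0.524, adjusted p = 0.000384), 2.5 for Nlrp3 (SE 0.38, adjusted p = 0.000194) and 2.31 for Irak3 (SE 0.508, adjusted p = 0.00414). For Tlr2 it was 2.27 (SE 0.616, adjusted p = 0.0161), for Cd14 2.12 (SE 0.54, adjusted p = 0.0111) and for Tlr4 1.20 (SE 0.396, adjusted p = 0.0408). Of all calls of that difference, 47.1% were upward, and 19.4% without scaling, where Tlr4 was lost (0.76, adjusted p = 0.202).

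Single libraries decided several of these values. Without the Tumor 1 border library, whose 21 macrophage-like cells carried the neutrophil markers given above, 7 members were called in Tumor 1, with Tlr2 at -2.70 (adjusted p = 1.88e-07), Cd14 at -1.82 (adjusted p = 7.029e-10), Tlr4 at 0.74 (adjusted p = 0.0028) and Nlrp3 at 0.69 (adjusted p = 0.0105) by edgeR. Without any 1 of the 3 Tumor 1 whole arrays, 0 or 1 was called there. Over these refits the number of all genes called ranged from 398 to 2488, so these member counts are not read as a result about the members. The Cd14 call of Tumor 2 was lost without whole array 1 (0.74, adjusted p = 0.103) or whole array 3 (0.57, adjusted p = 0.143) of that tumor and without scaling (0.51, adjusted p = 0.0516), and against C1q macrophage-like cells alone Cd14 stood at 0.02 and Tlr2 at -0.31, the other side of 0. Of the 6 differences between tumors, that of Cd14 was lost without Tumor 1 whole array 1 (adjusted p = 0.0622), Tumor 1 whole array 2 (0.0563) or Tumor 2 whole array 3 (0.0657). That of Tlr2 was lost without Tumor 1 whole array 2 (0.0913) or 3 (0.0693) or Tumor 2 whole array 2 (0.0656) or 3 (0.0792). That of Tlr4 was lost without any 1 library but the Tumor 1 border (adjusted p from 0.0572 to 0.154). Of 53 pathway genes tested, 7 were higher and 2 lower in this difference, 17.0% beside the 17.1% of all genes and so no result about the pathway, and the largest were Tlr8 (3.23), Mefv (2.91) and Il1b (2.53).

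**Figure D2:**
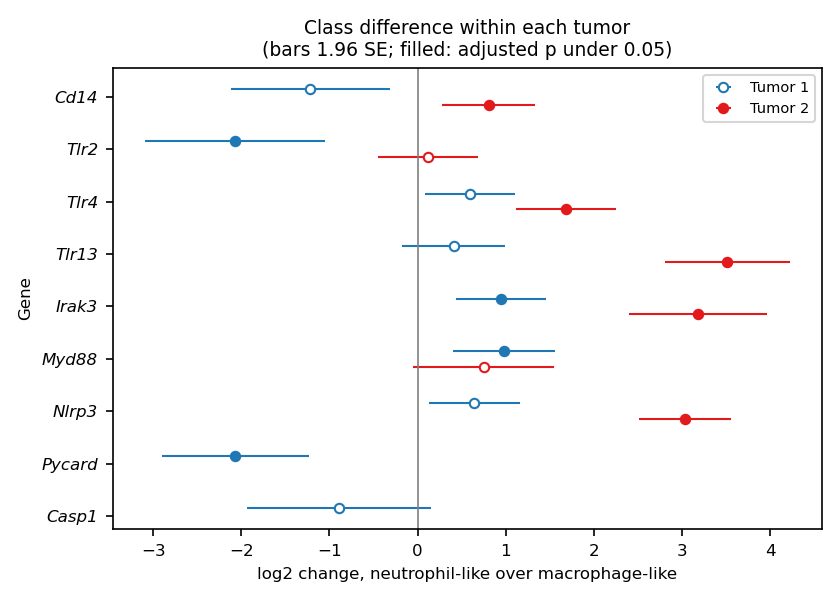
The log2 difference of neutrophil-like over macrophage-like cells for each gene tested, in Tumor 1 and in Tumor 2, with bars of the 95% normal interval from the edgeR SE; filled points have an adjusted p under 0.05. Tlr13, Irak3 and Nlrp3 lie above 3 in Tumor 2 and at or below 0.95 in Tumor 1, and Tlr2 lies at -2.07 in Tumor 1 and at 0.12 in Tumor 2 (-0.19 there without scaling).

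Within neutrophil-like cells, the 2 types could be compared in the 4 libraries of Tumor 1. The Siglec-F type, named for a marker of neutrophils that build up in lung tumors, carried less Cd14, Tlr2 and Irak3 than the Retnlg Hdc type, whose markers belong to neutrophils of blood. Cd14 was at 1130 CPM in the Siglec-F type of the border and at 721, 646 and 530 in the whole arrays, against 3454 and 1795, 1940 and 3010 in the Retnlg Hdc type. Every library had more in the Retnlg Hdc type, and the types did not overlap. Tlr2 was at 17.0 in the border and at 11.2, 20.1 and 0 in the arrays for the Siglec-F type, against 84.4 and 138, 71.8 and 96.3. Nlrp3 was at 1562 in the border and 168, 339 and 190 in the arrays, against 1829 and 184, 647 and 457, so the border stood above the arrays in both types. Over all libraries, with those of Tumor 2, the alveolar macrophage list stood at 695 CPM in the Siglec-F type and 148 in the Retnlg Hdc type. The general macrophage list stood at 944 and 583 and the neutrophil list at 9415 and 23233. The part of these lists in the difference between types was not tested.

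By edgeR with library as a block, 3 of the 7 members tested were called, where 4.73% of 3743 genes were, all 3 lower in the Siglec-F type. The log2 difference was -1.91 for Cd14 (SE 0.257, adjusted p = 1.376e-07), -3.01 for Tlr2 (SE 0.787, adjusted p = 0.0119) and -1.15 for Irak3 (SE 0.337, adjusted p = 0.0289). Nlrp3 (-0.83, adjusted p = 0.0791), Tlr13 (-0.82, adjusted p = 0.21), Tlr4 (-0.39, adjusted p = 0.566) and Myd88 (-0.31, adjusted p = 0.791) did not pass. The Cd14 call held with each library left out, from -2.08 to -1.72. The Tlr2 call was lost without the border (-3.24, adjusted p = 0.232) or whole array 1 (-2.85, adjusted p = 0.061), and the Irak3 call without the border (adjusted p = 0.171), whole array 1 (0.111) or whole array 2 (0.172). The Irak3 call was lost too with sums per tumor (-1.77, adjusted p = 0.189), with no filter on low counts (adjusted p = 0.302) and with all deposited barcodes (-0.98, adjusted p = 0.0847). Without scaling Irak3 was at -0.97 (adjusted p = 0.0978), and upward calls over all genes made up 46.9% in place of 28.8%. Of 35 pathway genes tested 0 were higher and 4 lower, namely Mefv (-2.25), the NF-kB inhibitors Nfkbia (-1.19) and Tnfaip3 (-1.19), and Il1b (-0.90), together 11.4%. With sums per tumor the calls of Nfkbia, Tnfaip3 and Il1b were lost.

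**Figure D3:**
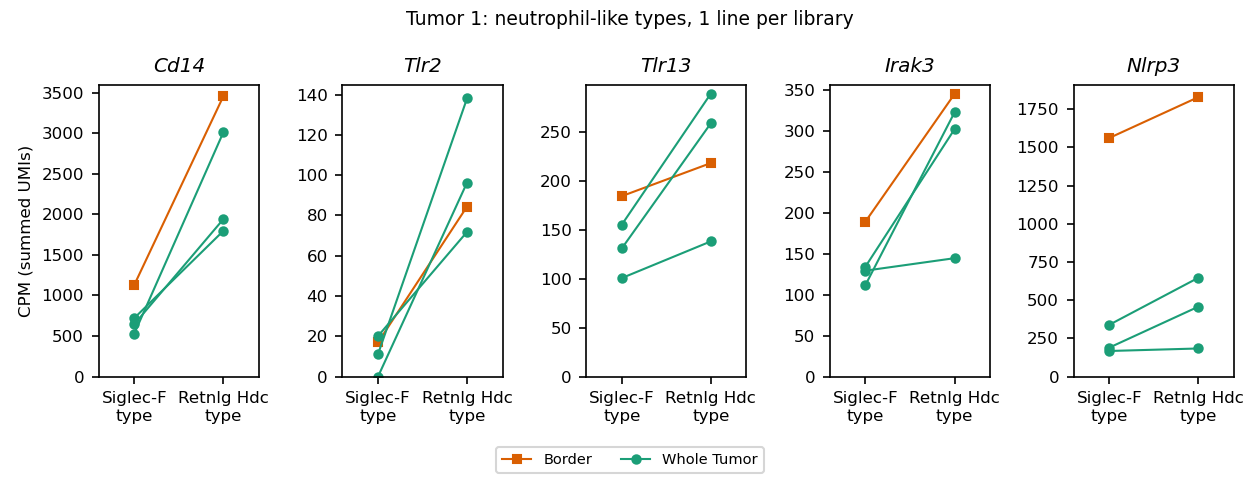
CPM of some of the member genes in Siglec-F type and Retnlg Hdc type neutrophil-like cells, with a point for each type in each Tumor 1 library. Cd14 lies between 530 and 1130 in the Siglec-F type and between 1795 and 3454 in the Retnlg Hdc type.

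The neutrophil-like cells of the 2 tumors differed widely in these genes. In the whole arrays Nlrp3 was at 280, 409 and 272 CPM in Tumor 1 and at 2024, 2055 and 2529 in Tumor 2. Cd14 was at 811, 831 and 1234 in Tumor 1 and at 4442, 4071 and 4440 in Tumor 2. Every Tumor 2 array lay above every Tumor 1 array for both genes. Tlr2 was at 40.4, 35.0 and 21.1 against 339, 302 and 387, and Tlr13 at 124, 174 and 201 against 688, 594 and 583. These did not overlap either, whereas Irak3, at 121, 162 and 164 against 192, 185 and 262, was apart by a narrow margin. Tlr4 lay the other way, at 435, 568 and 531 against 334, 351 and 200.03, as did Myd88, at 165, 149 and 122 against 96.1, 19.5 and 88.7. Each tumor is 1 animal and the animals differ in sex, so tumor, animal and sex cannot be told apart.

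By edgeR, fitted over all 8 libraries with the whole arrays contrasted, 5 of 8 members tested were called, all 5 higher in Tumor 2, where 48.3% of 6068 genes were called and 23% were called higher. The log2 difference (Tumor 2 over Tumor 1) was 4.26 for Tlr2 (SE 0.284, adjusted p = 1.729e-28), 3.60 for Nlrp3 (SE 0.228, adjusted p = 3.351e-30) and 3.0 for Cd14 (SE 0.218, adjusted p = 1.331e-25). It was 2.72 for Tlr13 (SE 0.231, adjusted p = 8.953e-21) and 1.42 for Irak3 (SE 0.247, adjusted p = 5.465e-07). Tlr4 (-0.05, adjusted p = 0.859), Myd88 (-0.02, adjusted p = 0.969) and Pycard (-1.92, adjusted p = 0.161) did not pass, and the members' median was 2.07 against -0.30 over all genes. The size depended on the scaling. Without scaling beyond the library total, all genes shifted by -0.86 at the median and upward calls made up 16.8% in place of 47.7%, Irak3 was at 0.56 (adjusted p = 0.0245), and Tlr4 (-0.89, adjusted p = 0.000186), Myd88 (-0.88, adjusted p = 0.00603) and Pycard (-2.75, adjusted p = 0.0246) were called lower, while Tlr2 (3.42), Nlrp3 (2.76), Cd14 (2.18) and Tlr13 (1.88) stayed called.

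The makeup of the neutrophil-like cells moved with the tumor. Their neutrophil list was at 11450, 9337 and 11018 CPM in the Tumor 1 arrays and at 29389, 24350 and 25747 in those of Tumor 2, and the alveolar macrophage list at 764, 563 and 735 against 137, 117 and 94.4. The Siglec-F type made up 46.0%, 52.0% and 49.6% of them in the Tumor 1 whole arrays, and the Retnlg Hdc type made up 80.7%, 70.7% and 83.2% in those of Tumor 2. Within the Retnlg Hdc type alone, the difference between tumors was called by edgeR for Nlrp3 (2.84), Tlr2 (2.42), Tlr13 (2.04) and Cd14 (1.57), with Irak3 at 0.35 (adjusted p = 0.451). Within cells of neither type it was called for Tlr2 (1.78), Nlrp3 (1.77) and Cd14 (1.08), with Tlr13 at 0.49 (adjusted p = 0.52) and Irak3 at -0.35 (adjusted p = 0.762). Each of these fits had scaling of its own, so their sizes are not set against those over all neutrophil-like cells. Among 46 pathway genes tested 19 were higher and 7 lower in Tumor 2, 56.5% beside the 48.3% of all genes and so near the background, with Tlr1 (3.84), Tlr8 (3.72), Il1b (2.97) and Nod2 (2.80) leading upward and Ikbke (-2.21), the chaperone Hsp90b1 (-1.90) and Il1a (-1.50) downward.

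**Figure D4:**
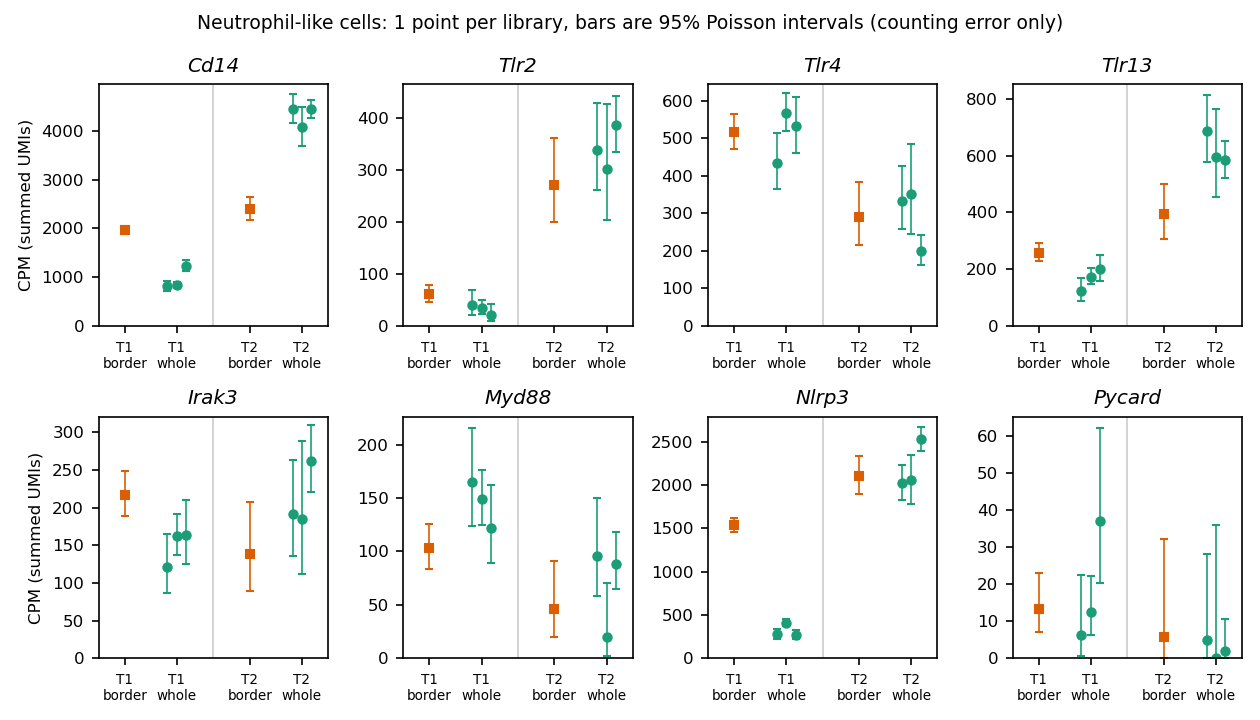
CPM of 8 genes in neutrophil-like cells, 1 point per library, for the border (squares) and the whole arrays (circles) of Tumor 1 and Tumor 2, with 95% Poisson intervals that cover counting error only. Nlrp3 in the Tumor 1 border, at 1540, stands well above the Tumor 1 arrays, at 272 to 409, and below the Tumor 2 libraries, at 2024 to 2529.

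At the border of Tumor 1, neutrophil-like cells carried more Nlrp3, Cd14, Tlr2, Tlr13 and Irak3 than in the whole arrays of that tumor. Nlrp3 was at 1540 CPM against 280, 409 and 272. Cd14 was at 1969 against 811, 831 and 1234, Tlr2 at 61.8 against 40.4, 35.0 and 21.1, Tlr13 at 259 against 124, 174 and 201, and Irak3 at 217 against 121, 162 and 164. In each of these genes the border lay above all 3 arrays, whereas Tlr4, at 516 against 435, 568 and 531, lay among them and Myd88, at 103 against 165, 149 and 122, below them. A Nlrp3 UMI was found in 58.9% of border cells and in 30.95%, 38.8% and 32.3% of array cells, and after thinning each cell to 1000 UMIs in 48.4% of 349 cells against 21.1% of 114, 25.9% of 270 and 19.2% of 125, shallower cells being left out.

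By edgeR, 5 of 8 members were called higher at the Tumor 1 border, where 9.59% of 6068 genes were called and 7.53% were called higher. The log2 difference was 2.79 for Nlrp3 (SE 0.266, adjusted p = 2.042e-16), 1.59 for Cd14 (SE 0.266, adjusted p = 1.565e-06) and 1.46 for Tlr2 (SE 0.382, adjusted p = 0.00448). It was 1.17 for Tlr13 (SE 0.289, adjusted p = 0.0023) and 1.07 for Irak3 (SE 0.296, adjusted p = 0.00804). Tlr4 (0.55, adjusted p = 0.219), Myd88 (0.05, adjusted p = 0.951) and Pycard (0.12, adjusted p = 0.953) did not pass, and the members' median was 1.12 against -0.08 over all genes. Without scaling all genes shifted by -0.54 at the median and upward calls made up 15.9% in place of 78.5%. There Nlrp3 (2.24, adjusted p = 3.748e-12) and Cd14 (1.04, adjusted p = 0.000641) stayed called, and Tlr2 (0.92, adjusted p = 0.0562), Tlr13 (0.62, adjusted p = 0.075) and Irak3 (0.52, adjusted p = 0.149) did not. With DESeq2 the Irak3 call was lost (0.99, adjusted p = 0.0718). With cells of at least 500 genes alone Nlrp3 (2.91, adjusted p = 2.101e-05) and Tlr2 (1.60, adjusted p = 0.0263) stayed called, and Cd14 kept its size at 1.59 but not its call (adjusted p = 0.104), and the calls of Tlr13 (1.21, adjusted p = 0.104) and Irak3 (1.03, adjusted p = 0.11) were lost.

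In these neutrophil-like cells the summed level of the general macrophage markers was 387 CPM at the border against 879, 749 and 1321 in the arrays, and that of the alveolar macrophage markers 398 against 764, 563 and 735. The C1q macrophage list, at 19.6 against 143, 56.4 and 95.1, also lay below all 3 arrays. The Mmp12 macrophage list, at 434 against 342, 143 and 227, and the cavity macrophage list, at 135 against 127, 68.8 and 84.6, lay above all 3. The neutrophil list was at 9795 against 11450, 9337 and 11018, and the 10 most abundant genes took 24.7% of UMIs against 19.7%, 18.5% and 19.2%. Their part in the border values was not tested.

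The border of Tumor 1 held fewer Siglec-F type cells, 33.4% of neutrophil-like cells against 46.0%, 52.0% and 49.6% in the arrays. Within the Siglec-F type alone Nlrp3 was higher at the border by 3.11 (adjusted p = 7.295e-27) and Cd14 by 1.27 (adjusted p = 0.000225) in edgeR, with Irak3 at 1.00 (adjusted p = 0.0629) and Tlr13 at 0.93 (adjusted p = 0.103). Within the Retnlg Hdc type Nlrp3 was higher by 2.48 (adjusted p = 0.00115) and Cd14 stood at 1.09 (adjusted p = 0.0864). Within cells of neither type Nlrp3 was higher by 1.83 (adjusted p = 0.00218) and Cd14 stood at 1.23 (adjusted p = 0.126). Nlrp3 was thus called within each of the 3 groups of cells, and Cd14 within 1. Of 46 pathway genes tested 11 were higher and 1 lower at this border, 26.1% beside the 9.59% of all genes. The NF-kB targets Tnfaip3 (2.79) and Nfkbia (2.34), which feed back on the pathway, and Il1a (2.37), Tlr6 (1.62) and Il1rn (1.19), the interleukin-1 receptor antagonist, were the largest, and the kinase gene Irak4 (-2.27) was the 1 lower. The Irak4 call was lost with no filter on low counts and that of Il1rn with cells of at least 500 genes.

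At the border of Tumor 2 the values lay the other way or level with the arrays. Cd14 was at 2395 CPM against 4442, 4071 and 4440, and Tlr13 at 394 against 688, 594 and 583. Nlrp3 was at 2111, within the 2024, 2055 and 2529 of the arrays, and Tlr2 at 273 against 339, 302 and 387. The border was the lowest library of Tumor 2 for Cd14, Tlr13, Tlr2 and Irak3 (139 against 192, 185 and 262). By edgeR 2 of 8 members were called lower, where 8.12% of genes were called, namely Cd14 (-1.22, SE 0.31, adjusted p = 0.00491) and Tlr13 (-1.03, SE 0.339, adjusted p = 0.0394). Irak3 (-1.08, adjusted p = 0.0926), Tlr2 (-0.75, adjusted p = 0.206), Nlrp3 (-0.44, adjusted p = 0.408) and Myd88 (-1.17, adjusted p = 0.24) did not pass. Without scaling Cd14 stood at -0.85 (adjusted p = 0.018) and Tlr13 at -0.65 (adjusted p = 0.158), with upward calls at 75.7% in place of 41.4%. The Tlr13 call was lost without Tumor 2 whole array 1 (-0.97, adjusted p = 0.0897) or whole array 3 (-1.01, adjusted p = 0.0596), and Irak3 was called without whole array 2 (-1.20, adjusted p = 0.0425). Both calls were lost with no filter on low counts (Cd14 at adjusted p = 0.0725 and Tlr13 at 0.30) and with cells of at least 500 genes (0.506 and 0.346).

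The marker lists moved in the same cells. The neutrophil list was at 13760 CPM at the border against 29389, 24350 and 25747 in the arrays. The alveolar macrophage list was at 377 against 137, 117 and 94.4, and the Mmp12 macrophage list at 551 against 152, 244 and 121. The general macrophage list, at 389 against 1037, 448 and 553, lay below all 3, and the part of these lists in the border values was not tested.

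The Retnlg Hdc type made up 42.5% of neutrophil-like cells at the border of Tumor 2 against 80.7%, 70.7% and 83.2% in its arrays. Within that type none of the 2 calls held by edgeR, with Cd14 at -0.77 and Tlr13 at -0.88. Within cells of neither type none of the 2 calls held either, with Cd14 at -0.30 and Tlr13 at 0.38. The Siglec-F type had too few cells in Tumor 2 for this comparison. Of 46 pathway genes tested, 17.4% were called beside the 8.12% of all genes. Of these 5 were higher, led by the ATP-gated channel gene P2rx7 (2.42), and 3 were lower, namely Unc93b1 (-3.04), which carries Toll-like receptors to endosomes, Il1b (-1.61) and Tnfaip3 (-1.10). The calls of these 3 lower genes were lost with cells of at least 500 genes, that of Tnfaip3 also without scaling or filter, and that of Unc93b1 with DESeq2.

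The difference between the tumors in the border effect was tested as an interaction and was called by edgeR for 5 of 8 members, where 9.84% of genes were called. It was -3.23 for Nlrp3 (SE 0.426, adjusted p = 1.727e-09), -2.81 for Cd14 (SE 0.418, adjusted p = 7.808e-08) and -2.22 for Tlr2 (SE 0.526, adjusted p = 0.00138). It was -2.20 for Tlr13 (SE 0.449, adjusted p = 0.000133) and -2.15 for Irak3 (SE 0.509, adjusted p = 0.00138), all lower in Tumor 2. Tlr4 (-0.87, adjusted p = 0.244) and Myd88 (-1.22, adjusted p = 0.285) did not pass. The members' median was -2.17 against 0.07 over all genes, and these 5 calls held with each whole array left out. With cells of at least 500 genes the Cd14 call was lost (-2.61, adjusted p = 0.0916), as were those of Nfkbia and Il1b named below. Without scaling all genes shifted by 0.95 at the median and upward calls made up 85.5% in place of 29.6%, where Nlrp3 (-2.31), Cd14 (-1.89) and Tlr13 (-1.28) stayed called and Tlr2 (-1.29, adjusted p = 0.0552) and Irak3 (-1.20, adjusted p = 0.0628) did not. Within the Retnlg Hdc type Nlrp3 was called (-2.42, adjusted p = 0.0348) and Cd14 was at -1.86 (adjusted p = 0.0644). Within cells of neither type Nlrp3 stood at -1.78 and Cd14 at -1.54, and neither was called. Tnfaip3 (-3.89), Nfkbia (-3.05) and Il1b (-2.62) led the 7 of 46 pathway genes that were lower, and P2rx7 (2.75) was the 1 higher, together 17.4%.

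**Figure D5:**
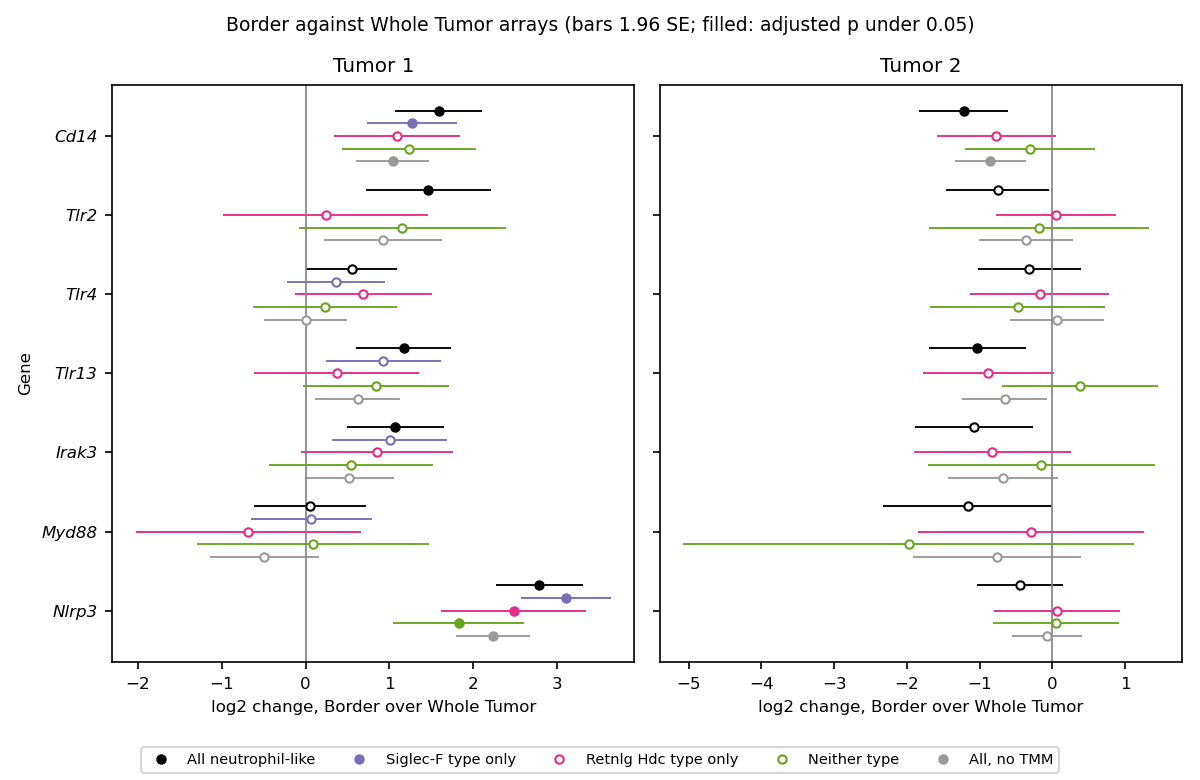
The log2 difference of border over whole arrays in neutrophil-like cells of Tumor 1 (left) and Tumor 2 (right), for all cells, for each type alone, for cells of neither type and for all cells without scaling (no TMM), with bars of the 95% normal interval from the edgeR SE; filled points have an adjusted p under 0.05. Nlrp3 lies between 1.83 and 3.11 in every series of the Tumor 1 panel and between -0.44 and 0.06 in every series of the Tumor 2 panel.

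In macrophage-like cells the border was compared with the arrays in Tumor 2 alone. The Tumor 1 border held 21 such cells, above the minimum of 10 for a sum, but none of the cavity type that made up 70.1%, 58.1% and 68.7% of them in the arrays. Cd14 was at 2583 CPM at the Tumor 2 border against 2432, 2753 and 2719 in the arrays, and Nlrp3 at 347 against 355, 262 and 348, so the border lay within or next to the range of the arrays. Tlr4 was at 61.3 against 124, 131 and 138, below all 3, and Tlr2 at 556 against 420, 203 and 357, above all 3. Tlr13 (94.9 against 51.4, 65.5 and 32.8) and Pycard (59.0 against 25.7, 39.3 and 21.8) also lay above all 3. By edgeR 0 of 9 members were called, where 2.6% of 6031 genes were, 4 members had an unadjusted p under 0.05, and DESeq2 also called 0. Tlr4 came closest in edgeR (-1.17, SE 0.334, adjusted p = 0.0561), followed by Tlr13 (1.01, adjusted p = 0.169), Pycard (1.09, adjusted p = 0.226) and Tlr2 (0.67, adjusted p = 0.26). Tlr4 was called by edgeR without Tumor 1 whole array 1 (-1.17, adjusted p = 0.0426). That library is not in the contrast and enters through the gene filter, the scaling and the shared estimate of spread.

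C1q macrophage-like cells made up 68.9% of macrophage-like cells at the Tumor 2 border against 42.6%, 43.8% and 41.8% in the arrays, and alveolar macrophage-like cells 6.11% against 27.9%, 35.0% and 30.1%. Within C1q macrophage-like cells Tlr4 stood at -0.12, Tlr13 at 0.27, Tlr2 at 0.65, Nlrp3 at -0.45 and Cd14 at -0.76. Of 53 pathway genes tested 2 were higher, Ikbke (2.65) and Nfkbia (1.01), and 1 was lower, Casp8 (-1.35), together 5.66% beside the 2.6% of all genes. The calls of Ikbke and Casp8 were lost with DESeq2, and those of Nfkbia and Casp8 within C1q macrophage-like cells. The 21 macrophage-like cells of the Tumor 1 border gave Nlrp3 at 1366 CPM, against 229, 160 and 157 in the arrays of that tumor, and Cd14 at 1315 against 2854, 2663 and 3497. Their neutrophil markers were the highest among macrophage-like cells, as given above, and the part of those markers in the Nlrp3 value was not tested.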

How the data were processed

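Cells were profiled by Seq-Well in 8 libraries: 1 border library and 3 whole-tumor arrays from each of 2 tumors. According to the paper's methods and the submitters' processing notes, the authors demultiplexed with bcl2fastq 2.17.1.14, aligned reads to mm10 with STAR 2.5.2b and counted UMIs by the Drop-seq protocol 2.0, and the deposited values are raw UMI counts per gene and barcode, with replicates kept apart. The study's own cell names were not used here.

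Barcodes with at least 200 genes were kept, and 57 were marked as doublets by Scrublet (scanpy 1.11.5) and were left out only as an alternative. Each barcode was scored on marker lists (133 of 134 markers found), each marker's log level being divided by its SD and capped at 6, and it took the class with the highest mean score among those with at least 2 detected markers. Counts were summed per library and class where at least 10 cells were present and tested with edgeR 4.0.16 (TMM scaling, quasi-likelihood test, limma 3.58.1, R 4.3.3) with Benjamini-Hochberg adjustment over all genes tested and a threshold of 0.05. The edgeR filter on low counts was applied. DESeq2 1.42.0 was an alternative, and so were no scaling, no filter, cells with at least 500 genes, 3 markers in the gate, no barcode over 25% mitochondrial UMIs (159 were), no shared barcodes, and leaving out each library. Alternatives within single cell types, against C1q macrophage-like cells alone, and per-tumor comparisons of neutrophil-like with macrophage-like cells were chosen after seeing the data. The scripts were tested on simulated data.

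The members and gene lists were chosen with earlier results of these data known. The text names every member, and of the pathway list the up to 5 genes with the largest change each way among those called. Intervals are exact (Poisson for CPM) at 95% and cover counting error only. Samples were grouped by their labels, and 0 columns of the tables were left out. A few items, among them an engineered allele of the model and the gene closest to Casp1, are not reported here.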

Additional observations from a re-analysis of the deposited data

Results flagged for a closer look

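The following values differed between the 2 tumors by a test of the difference itself (edgeR, log2, Tumor 2 minus Tumor 1). Each tumor is 1 mouse, so tumor, animal and sex cannot be told apart. For the border against the whole arrays in neutrophil-like cells they were -3.23 for Nlrp3, -2.81 for Cd14, -2.22 for Tlr2, -2.20 for Tlr13 and -2.15 for Irak3. For neutrophil-like against macrophage-like cells they were 3.19 for Tlr13, 2.5 for Nlrp3, 2.31 for Irak3, 2.27 for Tlr2, 2.12 for Cd14 and 1.20 for Tlr4. The makeup of the cells moved with both: the Siglec-F type made up 33.4% to 52.0% of neutrophil-like cells in the libraries of Tumor 1, and the Retnlg Hdc type 42.5% to 83.2% in those of Tumor 2. Among macrophage-like cells of the whole arrays, cavity cells made up 58.1% to 70.1% in Tumor 1 and 1.25% to 4.85% in Tumor 2, and C1q cells 7.79% to 12.9% and 41.8% to 43.8%. The part of the makeup in the first group of values was examined only within the Retnlg Hdc type and within cells of neither type. The Siglec-F type had too few cells in Tumor 2 for this, and of that group only Nlrp3 and Cd14 are given above. In the second group of values the part of the makeup was not tested.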

How the results depend on the processing

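For the members called in the report, 41 values were recomputed under 584 alternatives, and 494 kept direction and call, 88 lost the call and 2 changed direction. Causes of the shifts below were not tested. Without scaling beyond the library total, 1229 genes were called for the border of Tumor 1 and 1098 for the difference between tumors. Members called there numbered 2 for the border of Tumor 1, 1 for that of Tumor 2, 3 for their difference and 8 between tumors. With scaling, 48.3% of all genes were called between tumors and 8.12% for the border of Tumor 2. Such shares are not given without scaling, nor for the alternatives and single types below. No member count in this section is therefore read as a result about the members. Of values not called, the border effect in Tumor 1 was -0.49 for Myd88 and -0.42 for Pycard, that of Tlr4 was 0.067 in Tumor 2 and 0.064 in the difference, Tlr2 in neutrophil-like over macrophage-like cells of Tumor 2 was -0.19, and Casp1 in the difference of that comparison between tumors was -0.14. DESeq2 called 289, 278 and 327 genes for the border of Tumor 1, of Tumor 2 and their difference, 44 for macrophage-like cells, and 2 members for neutrophil-like over macrophage-like cells of Tumor 1, with Myd88 at -0.0400 for the border of Tumor 1 and Tlr2 at -0.0078 in Tumor 2. With no filter on low counts, 360, 194 and 318 genes were called for the 3 border comparisons, 0 members for Tumor 2, and 93 genes between the neutrophil types. With cells of at least 500 genes the counts were 265, 165 and 209, with 2 members for Tumor 1 and 0 for Tumor 2. With sums per tumor (2 pairs), 1377 genes were called between neutrophil-like and macrophage-like cells, with Cd14 at 0.18, and 66 between the types.

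Within the Siglec-F type 327 genes and 2 members were called for the border of Tumor 1. Within the Retnlg Hdc type 133, 26 and 102 genes and 1, 0 and 1 members were called for the 3 border comparisons and 897 genes between tumors. There Myd88 was at -0.68 for the border of Tumor 1 and 0.38 in the difference, and at the border of Tumor 2 Nlrp3 was at 0.060 and Tlr2 at 0.048. Within cells of neither type 30, 15 and 22 genes and 1, 0 and 0 members were called, and 299 genes and 3 members between tumors. There Nlrp3 was at 0.051, Tlr13 at 0.38 and Il1a at -1.04 for the border of Tumor 2, and Irak3 at -0.35 between tumors. Within C1q macrophage-like cells 52 genes were called for the border of Tumor 2, with Nlrp3 at -0.45, and Tlr2 was at -0.31 in neutrophil-like over macrophage-like cells of that tumor. Myd88 between tumors was at 0.0068 with cells of at least 500 genes, 0.0039 with 3 markers in the gate and 0.021 without cells over 25% mitochondrial UMIs, and at -0.0400 for the border of Tumor 1 with 3 markers. Shares of all genes called are not given for the fits within subsets of cells, so their member counts are not read as a result.

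With 1 library left out, genes called ranged from 88 to 154 between the types (members 1 to 3), 348 to 684 for the border of Tumor 1, 315 to 562 for that of Tumor 2 (members 1 to 3), 99 to 179 for macrophage-like cells (members 0 to 1) and 1893 to 2877 between tumors. They ranged from 398 to 2488 for neutrophil-like over macrophage-like cells of Tumor 1 (members 0 to 7) and from 411 to 1349 for its difference between tumors (members 3 to 6). Values that crossed 0 were Cd14 between neutrophil-like and macrophage-like cells (-0.33 to 0.19), Tlr2 in Tumor 2 (-0.18 to 0.23), Casp1 (-0.046 to 0.73) and Myd88 (-0.60 to 0.21) in the difference between tumors, Myd88 (-0.070 to 0.15) and Pycard (-0.19 to 0.15) for the border of Tumor 1, Myd88 (-0.044 to 0.23) and Nlrp3 (-0.081 to 0.081) for macrophage-like cells, and Myd88 (-0.31 to 0.26) and Tlr4 (-0.18 to 0.18) between tumors.

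The array numbers were not used to pair samples across tumors. Deviations of same-numbered arrays correlated at -0.010, -0.023 and -0.011 over 4536 genes, and those of differently numbered arrays at -0.011 to 0.026. Whether same-numbered arrays shared a batch was not tested. With the number as a block, 2513 genes and 5 members were called between tumors. Sums per type were too few for the type comparison with 3 markers, and no comparison of a border could be made without that border. Low UMI counts of Ly96, Casp1 and Pycard limit what can be said of them.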
